A study of Caenorhabditis elegans with 2 samples.

Results

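Ligand-gated ion channels let neurons and muscles answer a transmitter within milliseconds, because the protein that binds the transmitter is itself the pore. Nicotinic receptors and their relatives are pentamers gated by acetylcholine, GABA, serotonin or tyramine, and ionotropic glutamate receptors are tetramers. C. elegans has an unusually large repertoire of them, which includes the targets of levamisole and other anthelmintic drugs. LIN-14 is a nuclear protein that specifies first-stage fates of the larva, and it is known to hold back the rewiring of DD motor neuron synapses at that stage. The genes described here are the protein-coding genes of Ensembl WBcel235 whose names begin with acr-, lgc-, glr- or nmr- and a number, without acr-12, together with unc-29, unc-38, unc-63, eat-2, gab-1, exp-1 and mod-1. They were picked by name, with earlier results of these data known, and number 93 of 19973 protein-coding genes.

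Tagged LIN-14 was mapped by chromatin immunoprecipitation sequencing (ChIP-seq) in whole L1 larvae of 6 hours, as 2 biological replicates of 1 group. Strain OP768 is an unc-119(tm4063) mutant that carries wgls768, an insertion of lin-14::TY1::EGFP::3xFLAG with unc-119(+), and precipitation used an antibody against GFP. The genotype lists no change at lin-14 itself, so the tagged copy is an added one. Larvae were of pooled sex and had been synchronised by starving after bleaching, and the labels do not say whether they were later fed. There was no second condition, so the report describes where peaks lay and how strong they were. Replicate 1 had 25357 peaks, replicate 2 had 27170, a list from both together (the pooled list) had 24683, and a list thresholded on the irreproducible discovery rate (IDR) had 11507. Peaks below are from the IDR-thresholded list, with the scores of the matching replicate peaks (summit within 100 bp) beside them. A score is the authors' measure of peak strength, ran from 147.5 to 13287.5 with a median of 358.7, and lies on a lower scale in the replicate lists. In whole animals, occupancy in a few cells and weak occupancy in many cannot be told apart.

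LIN-14 summits lay in the promoter window of 17 of the 93 channel genes, or 18.3%. The window reached from 1000 bp upstream to 200 bp past any annotated transcript start, and 23% of all protein-coding genes had a summit there. From 5 kb upstream of the gene to 1 kb beyond its end, a stretch called the locus here, 50 of the 93 had a summit (53.8%), against 45.1% of all genes. Channel genes were the nearest gene to a summit in 34 cases (36.6%), against 28.8% of all genes. No test was applied to these shares. How the promoter share of channel genes stood against all genes depended on the setting. When the window ran 2000 bp upstream and 500 bp into the gene, the shares were 30.1% and 29.7%, and in the pooled list they were 37.6% and 31.7%. Among peaks in the higher 50% of scores they were 6.45% and 15.4%. Without summits that also lay in another gene's promoter window they were 15.1% and 15.9%, for 14 channel genes.

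**Figure D1:**
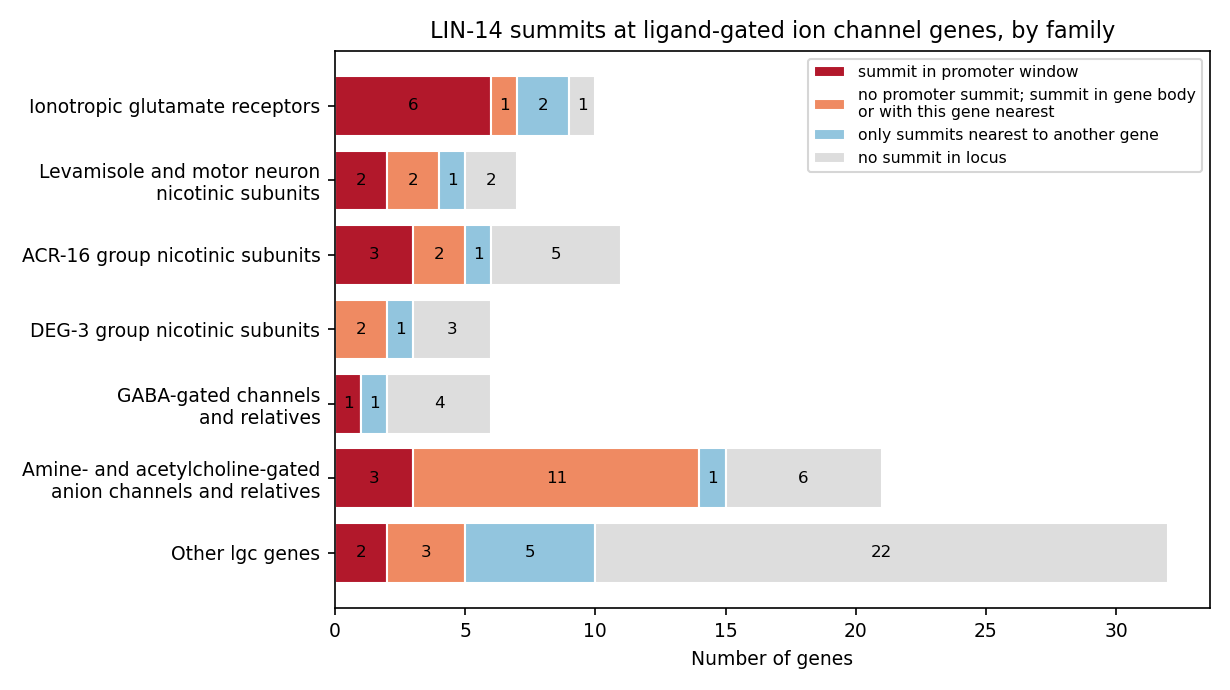
Number of channel genes (x axis) in each of 7 families (rows), split by where their LIN-14 summits lay in the IDR-thresholded list. Ionotropic glutamate receptors had promoter summits in 6 of 10 genes, and 22 of the 32 other lgc genes had no summit in the locus. Of all protein-coding genes, 23% had a promoter summit and 45.1% a summit in the locus.

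The promoter peaks of channel genes had low scores. The highest promoter score of each of the 17 genes had a median of 261, with a range of 151 to 1093, against a median of 526 over the 4599 protein-coding genes with a promoter summit. Only glr-6 lay above that median. Of the 111 distinct summits in the channel gene loci, 36 (32.4%) scored above the median of the IDR-thresholded list.

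**Figure D2:**
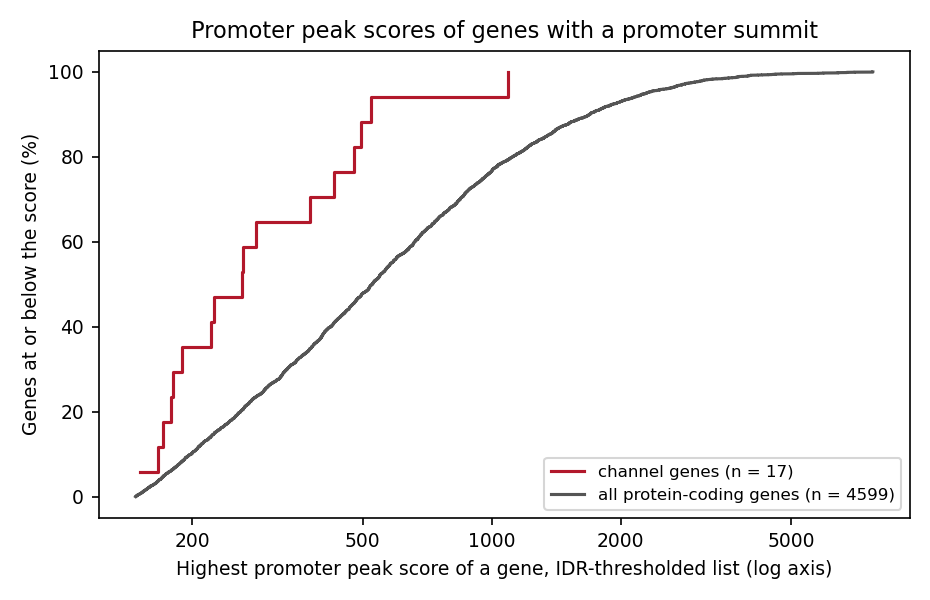
Cumulative share of genes (y axis, percent) against the highest promoter peak score of each gene (x axis, log scale), for the 17 channel genes and for all 4599 protein-coding genes with a promoter summit. The channel genes reach from 151 to 1093, and 16 of them lie below the median of 526 of all such genes.

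Ionotropic glutamate receptor genes had a promoter summit in 6 of 10 cases (60%). The share was 13.3% in the other 83 channel genes (11 genes) and 23% in all protein-coding genes. A summit in the locus was found at 9 of the 10, against 45.1% of all genes. The strongest promoter peak of any channel gene was at glr-6, a kainate-type subunit gene (chromosome X, 6836210 to 6840720, minus strand). It had a score of 1093, with 586 in replicate 1 and 509.9 in replicate 2, and its summit lay 318 bp upstream. That summit was 220 bp from the start of the divergent gene asg-2, which encodes a subunit of ATP synthase, and cannot be assigned to either. A second peak, in the 3′ UTR of glr-6, scored 449 and was 194 bp from the start of F41B4.3.

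The glr-5 peak (chromosome V, gene at 8716495 to 8720516) scored 523, with 274 and 246 in replicates 1 and 2, and was centred 122 bp upstream with no other promoter around it. The glr-1 gene encodes an AMPA-type subunit that acts in the command interneurons for locomotion (chromosome III, 8584163 to 8588642, minus strand). Its promoter peak scored 478, with 267 and 216 in replicates 1 and 2, with the summit 345 bp upstream, and no other summit lay in the locus. The partner subunit gene glr-2 (chromosome III, 7138640 to 7144959, minus strand) had a weaker promoter peak of 263, with 145 and 111 in the replicates, 75 bp upstream. The pharyngeal gene glr-8 had 377, with 187 and 172 in the replicates, at 762 bp upstream, but the summit was 75 bp from the start of cdf-1, a divergent zinc transporter gene. The last of the group, glr-3 on chromosome I, had a promoter peak of 179, with 109 and 78.6 in the replicates, which was nearer to K10D3.6 (185 bp) than to glr-3 (968 bp). When summits that also lay in another gene's promoter window were left out, glr-1, glr-2 and glr-5 were left. These are 3 of 10, against 15.9% of all genes counted in the same way.

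The other glutamate receptor genes differed in where their peaks lay. The AMPA-type gene glr-4 (chromosome II, 7785100 to 7794322, minus strand) had the most summits of all 93 genes, 6, with none in its promoter window. Of these 4 were intronic, with scores of 526 (replicates 1 and 2: 339 and 193), 516 (313 and 204), 354 (187 and 164) and 246 (139 and 103), and 2 lay upstream, at 1139 bp (341) and 2858 bp (185). The small gene srlf-1 sits inside glr-4, and the summits of score 354 and 246 fell in its promoter window. The summit of score 516 also had srlf-1 as its nearest gene, at 1291 bp, against 2437 bp to the nearest glr-4 start. For the NMDA-type genes nmr-1 and nmr-2, all 4 locus summits had another gene nearest, with scores of 427 and 259 at nmr-1 and 312 and 203 at nmr-2. The pharyngeal gene glr-7 had no peak in any of the 4 lists.

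The 3 summits inside glr-2 coincided with genes of the trans-splicing machinery. SL2 RNAs, the spliced leaders that are joined to the downstream messages of operons, are encoded in part by sls-2 genes, and 3 of these sit within glr-2. The summit of score 425 (replicates 1 and 2: 244 and 169) lay 3 bp from sls-2.16, that of score 313 (157 and 162) lay 25 bp from sls-2.5, and that of score 264 (124 and 145) lay 37 bp from sls-2.18. All were just before the 5′ end of the small RNA gene. A small nuclear RNA gene, the annotation class that holds sls-2, lay within 300 bp of 28 of the 11396 other summits of the list (0.246%).

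The window of 101 bp around each summit below shows the sequence under the glutamate receptor promoter peaks, read 5′ to 3′ along the strand of the gene, from the RefSeq copy of WBcel235. Capitals mark matches on either strand to 9 short sequences. The spellings of a described LIN-14 consensus were GAACAC as well as GAACAT, and GAACGC as well as GAACGT. The others were GAGAGA, the E-box CACGTG, the AP-1 type site TGACTCA, the GATA factor core TGATAA and the sequence CTGCGTCT, and no match here overlaps another.
glr-6 (chrX:6840988-6841088, minus strand): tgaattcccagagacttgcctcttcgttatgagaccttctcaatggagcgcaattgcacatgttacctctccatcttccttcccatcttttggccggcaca
glr-5 (chrV:8716323-8716423, plus strand): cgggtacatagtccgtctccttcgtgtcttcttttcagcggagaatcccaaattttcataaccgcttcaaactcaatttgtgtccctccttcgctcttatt
glr-1 (chrIII:8588937-8589037, minus strand): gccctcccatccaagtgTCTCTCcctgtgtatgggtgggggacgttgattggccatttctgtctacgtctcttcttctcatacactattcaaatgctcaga
glr-8 (chrX:6505168-6505268, plus strand): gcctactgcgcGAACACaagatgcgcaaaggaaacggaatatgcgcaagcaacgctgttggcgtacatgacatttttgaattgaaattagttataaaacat
glr-2 (chrIII:7144984-7145084, minus strand): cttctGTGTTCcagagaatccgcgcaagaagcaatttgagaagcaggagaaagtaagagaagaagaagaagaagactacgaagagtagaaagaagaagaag
The windows of glr-8 and glr-2 each hold a match to GAACAC, on opposite strands relative to the gene. That of glr-1 holds GAGAGA on the other strand, and those of glr-6 and glr-5 hold none of the 9. Every promoter window printed here comes from a peak matched in both replicates.

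Among nicotinic subunits of the levamisole and motor neuron receptors, 2 of 7 genes had a promoter summit (28.6%, against 23% of all genes). UNC-29, a non-alpha subunit of the levamisole-sensitive receptor of body wall muscle, is encoded on chromosome I (8897632 to 8901435, minus strand). Its promoter peak scored 261, with 161 and 105 in replicates 1 and 2, at 246 bp upstream, and a stronger peak of 354 (231 and 123) lay 1200 bp upstream. Another subunit gene of that receptor, unc-63 (chromosome I, 5141673 to 5149226), had the strongest peak for which a channel gene was the nearest gene. It scored 1629, with 890 in replicate 1 and 742 in replicate 2, and its summit was 1257 bp upstream and so outside the promoter window. The third, unc-38, had no summit in its locus in the IDR-thresholded list.

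The motor neuron subunit gene acr-2 (chromosome X, 6702549 to 6709308) had a promoter peak of 282, with 160.2 and 124 in the replicates, 153 bp upstream. It also had 3 intronic summits, the strongest of 417 (234.98 and 177) at 2829 bp inside the gene. Its neighbour acr-3 had no summit of its own, and the one in its locus was this intronic summit of acr-2. The gene acr-8 had a peak of 627 (343 and 287 in replicates 1 and 2) at 1981 bp upstream and 1 of 190.4 in an intron. Of the levamisole subunit genes that the naming rule leaves out, lev-1 had no summit in the locus and lev-8 had 2, the stronger of 756, with none in the promoter window.

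The nicotinic genes of the ACR-16 group had promoter summits in 3 of 11 cases (27.3%, against 23% of all genes), acr-7, acr-15 and acr-21. The acr-7 peak scored 429 (263 and 167 in replicates 1 and 2) at 973 bp upstream, close to the limit of the window, and its summit was 173 bp from the microRNA gene mir-57, which lies between it and acr-7. The acr-15 promoter was the only one with 2 summits, of 225 (137 and 90.97 in replicates 1 and 2) and 151 (81.1 and 74.6). Farther downstream on the same strand is acr-16, the gene for the nicotine-sensitive receptor of body wall muscle, whose only summit scored 179 (97.8 and 84.8) at 1394 bp upstream. The acr-21 peak scored 189, with 90.8 and 113 in the replicates, at 929 bp upstream. For eat-2, which encodes the receptor subunit that paces pharyngeal pumping, none of the 4 lists held a peak in the locus. Of 6 genes of the DEG-3 group none had a promoter summit, against 23% of all genes. Both intronic summits of acr-18 (287 and 214) fell inside transfer RNA genes, and the summit of 807 beyond the end of acr-17 lay 172 bp from the start of F53E10.1. The summit of 710.0 (403 and 302) upstream of acr-10 lay inside another gene, mop-25.1. The gene acr-23, which encodes the target of the drug monepantel, had no summit in its locus.

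GABA-gated channels and their relatives had 1 promoter summit in 6 genes (16.7%, against 23% of all genes). It was at lgc-38, with a score of 166 (69.1 and 93.5 in replicates 1 and 2) at 108 bp upstream, and 3 intronic summits there were stronger, up to 369 (178 and 176). The GABA-gated cation channel gene exp-1 had a summit of 185 at 4257 bp upstream, nearer to hst-3.1. No summit lay in the loci of gab-1, lgc-35, lgc-36 or lgc-37, and the head-to-head genes gab-1 and lgc-37 share 5427 bp of upstream sequence without one.

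Of the 21 amine- and acetylcholine-gated anion channels and their relatives, 3 had a promoter summit (14.3%, against 23% of all genes). A summit in the locus was found at 15 (71.4%, against 45.1% of all genes). The nearest gene to a summit was a member of this family in 14 cases, and 28.8% of all genes were nearest to one. The promoter count depended on the window, with 8 of 21 for 2000 bp upstream and 500 bp inside, against 29.7% of all genes. The acetylcholine-gated channel gene lgc-47 (chromosome X, 9801081 to 9807662, minus strand) had the strongest promoter peak, 495, with 249 and 228 in replicates 1 and 2, at 150 bp upstream. Its intronic peak of 777 (375 and 399.9) was the strongest inside any channel gene. MOD-1, a serotonin-gated chloride channel, had a promoter peak of 221 (105 and 108 in the replicates) at 663 bp upstream and a peak of 252 farther upstream. The lgc-45 promoter peak of 181, at 709 bp upstream, had 130.1 in replicate 1 and 55.9 in replicate 2, the largest ratio between replicates among the channel gene peaks.

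The acetylcholine-gated channel gene lgc-46 (chromosome III, 1125230 to 1136025, minus strand) had an intronic peak of 530.1 (306 and 223) and one of 491 (283 and 218) at 1027 bp upstream, just outside the window. The nearest other miss was lgc-41, at 1065 bp. All 4 summits of lgc-46 also lay within acsd-1, a longer gene on the opposite strand that contains it. The dopamine-gated channel gene lgc-53 had 4 intronic summits of 148 to 266 and none upstream. For the serotonin-gated cation channel gene lgc-50 the summits lay 1988 and 3739 bp upstream (154 and 298), while the tyramine-gated chloride channel gene lgc-55 had 1, of 179, in an intron. Beyond the end of lgc-40 a peak of 896 (501 and 394 in replicates 1 and 2) was nearest to T24D8.6.

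**Figure D3:**
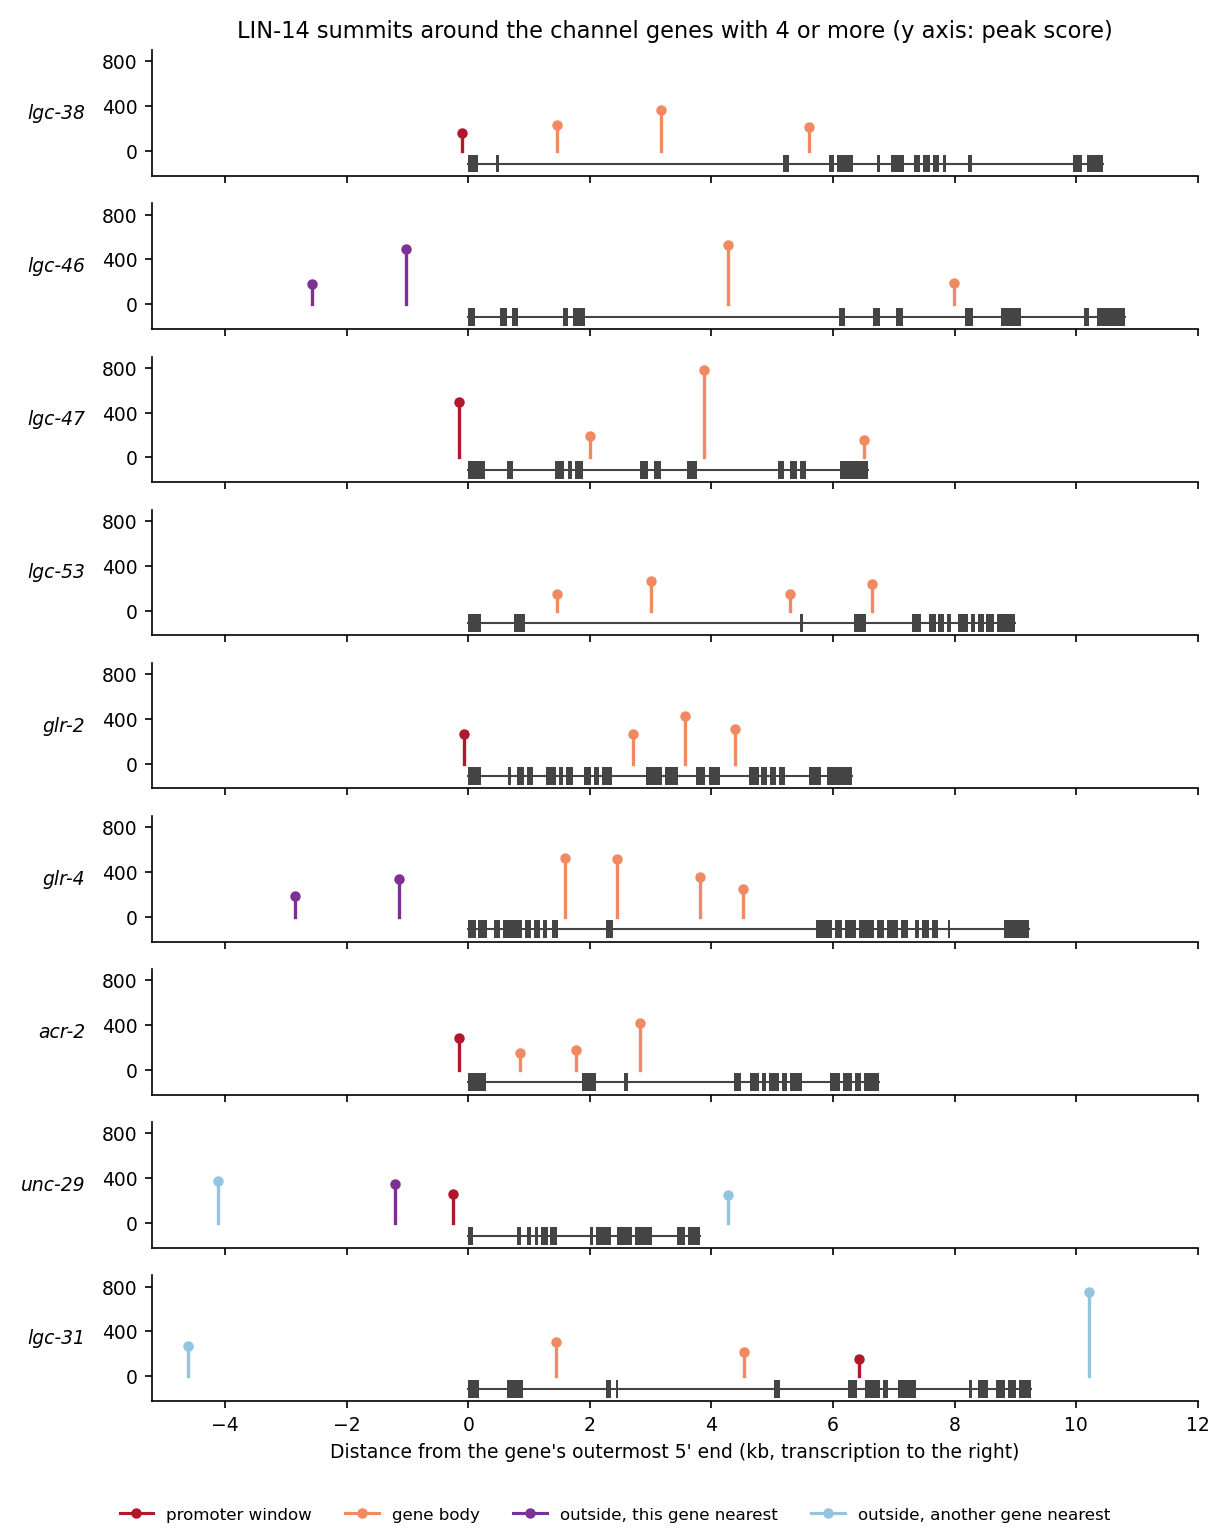
LIN-14 summits (points, height = peak score in the IDR-thresholded list) against distance from the gene's 5′ end (x axis, kb) for the 9 channel genes with 4 or more summits in the locus, with exons as dark boxes on a line that marks the gene. Intronic summits outnumber promoter summits at each of these genes except unc-29, and the highest score at a gene body is 777 in lgc-47.

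The sequences under the acr-7, acr-2 and lgc-47 promoter peaks, and under strong peaks outside promoter windows, are given in the same form as examples from the nicotinic and anion channel genes.
acr-7 (chrII:7850720-7850820, minus strand): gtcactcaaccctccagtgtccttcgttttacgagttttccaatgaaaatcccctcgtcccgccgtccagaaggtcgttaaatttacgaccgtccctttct
acr-2 (chrX:6702346-6702446, plus strand): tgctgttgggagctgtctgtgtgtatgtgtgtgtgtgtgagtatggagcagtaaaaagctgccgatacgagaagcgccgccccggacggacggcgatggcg
lgc-47 (chrX:9807762-9807862, minus strand): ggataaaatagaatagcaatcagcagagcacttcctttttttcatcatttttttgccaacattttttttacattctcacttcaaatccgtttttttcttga
lgc-47 intron (chrX:9803741-9803841, minus strand): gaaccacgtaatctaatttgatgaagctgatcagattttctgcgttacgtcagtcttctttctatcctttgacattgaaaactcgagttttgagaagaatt
acr-8 (chrX:10410694-10410794, plus strand): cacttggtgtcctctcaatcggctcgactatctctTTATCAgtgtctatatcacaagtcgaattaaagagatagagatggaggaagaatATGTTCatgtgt
lgc-46 (chrIII:1131704-1131804, minus strand): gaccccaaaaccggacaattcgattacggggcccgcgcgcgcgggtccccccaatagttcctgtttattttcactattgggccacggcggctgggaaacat
The acr-8 window holds GAACAT and TGATAA, both on the other strand, and the other 5 hold none of the sequences searched. Not every strong peak outside promoter windows is shown. The windows left out are those of lgc-21 (1262), lgc-12 (1031), glr-4 (526) and lgc-44 (438). That of lgc-44 holds GAGAGA and CTGCGTCT, and the others left out hold none.

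The remaining 32 lgc genes, most with no known ligand, had promoter summits in 2 cases (6.25%, against 23% of all protein-coding genes). A summit in the locus was found at 10 (31.25%, against 45.1% of all genes), and the other 22 had none. The lgc-4 summit (score 171, with 84.9 and 77.3 in replicates 1 and 2) lay in the 5′ UTR. The lgc-31 summit (151, with 70.8 and 80.1) lay 304 bp before the start of a shorter transcript, inside an intron of the longest one and 22 bp from a transfer RNA gene. The strongest peaks in the loci of this group mostly belonged elsewhere by distance. The peak of 2088 (1181 and 921 in replicates 1 and 2) beyond the end of lgc-29 was nearest to Y45G5AL.1. That of 1967 (1053 and 924) upstream of lgc-20 lay 211 bp from the start of B0491.6, and that of 1241 (675 and 574) upstream of lgc-1 lay 229 bp from the start of the nuclear receptor gene nhr-57. A peak of 1012 (545 and 462) upstream of lgc-13 was 12 bp from a transfer RNA gene, and 1 of 1262 (752 and 519.6) beyond the end of lgc-21 was 32 bp from another. At lgc-12 a peak of 1031 (572 and 459 in replicates 1 and 2) lay 2113 bp upstream, with lgc-12 the nearest gene. A tandem array on chromosome X, lgc-14 to lgc-18, had no peak in any list.

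Of the 112 pairs of a channel gene and a summit, 18 were in the promoter window, 38 elsewhere in the gene body, 21 outside with the channel gene nearest and 35 outside with another gene nearest. Summits outside with another gene nearest had a higher median score (335) than those in gene bodies (230.2) or outside with the channel gene nearest (252). Some summits in gene bodies, and 3 in promoter windows, also had another gene nearest but were not counted in that class. In the gene body, 35 of the 38 were intronic and 3 were in 3′ UTRs. Gene bodies held a summit in 20 of the 93 genes (21.5%), against 10.7% of all genes. Channel genes were also longer, with a median of 4167 bp against 2027 bp, and per 100 kb of gene body they had 8.56 summits against 6.93 for all genes. Across the 93 genes the number of locus summits followed gene length with a Spearman's rho of 0.40, which is a description of genes that share the same lists. The upstream gap to the next gene had a median of 2539 bp at channel genes against 1156 bp at all genes. By chromosome, X held 26 of the genes, 5 of them with a promoter summit, against 33.9% of all X-linked genes, and none of the 14 genes on chromosome IV had a promoter summit, against 18.7% of all genes there.

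Transfer RNA genes lay within 300 bp of 7 of the 111 distinct summits (6.31%), against 208 of the 11396 other summits (1.83%). These were the summits named above at acr-18, lgc-31, lgc-13 and lgc-21, another intronic one in lgc-31 and 1 upstream of nmr-2. Genes of the annotation class ncRNA lay within 300 bp of 26 of the 111 (23.4%), against 17.3% of the other summits. The promoter summits of acr-7, glr-1, lgc-4, mod-1 and unc-29 fell inside such genes, and the share of other summits that did so was not counted. The distance was chosen after the positions were seen. Whether these peaks belong to the channel genes or to the non-coding RNA genes was not tested.

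Both replicate lists held a match for 107 of the 111 distinct summits (96.4%), including every promoter summit of a channel gene, and for 96.6% of all peaks. The IDR-thresholded list was itself selected for agreement between these 2 replicates. High values were thus built in, and these shares are no independent check of the peaks. The median log2 ratio of replicate 1 to replicate 2 scores was 0.30 at channel gene peaks (SD 0.35, n = 107) and 0.35 over all 11120 matched peaks (SD 0.41). No channel gene peak departed from that general shift by more than 2-fold. Across these selected peaks, Spearman's rho between replicate scores was 0.87 at channel genes and 0.92 for all matched peaks. Among promoter peaks glr-6 was highest in both lists, and glr-5 came next in both. Below them lgc-47, glr-1 and acr-7 changed places, with 249, 267 and 263 in replicate 1 and 228, 216 and 167 in replicate 2, so their order is not resolved.

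**Figure D4:**
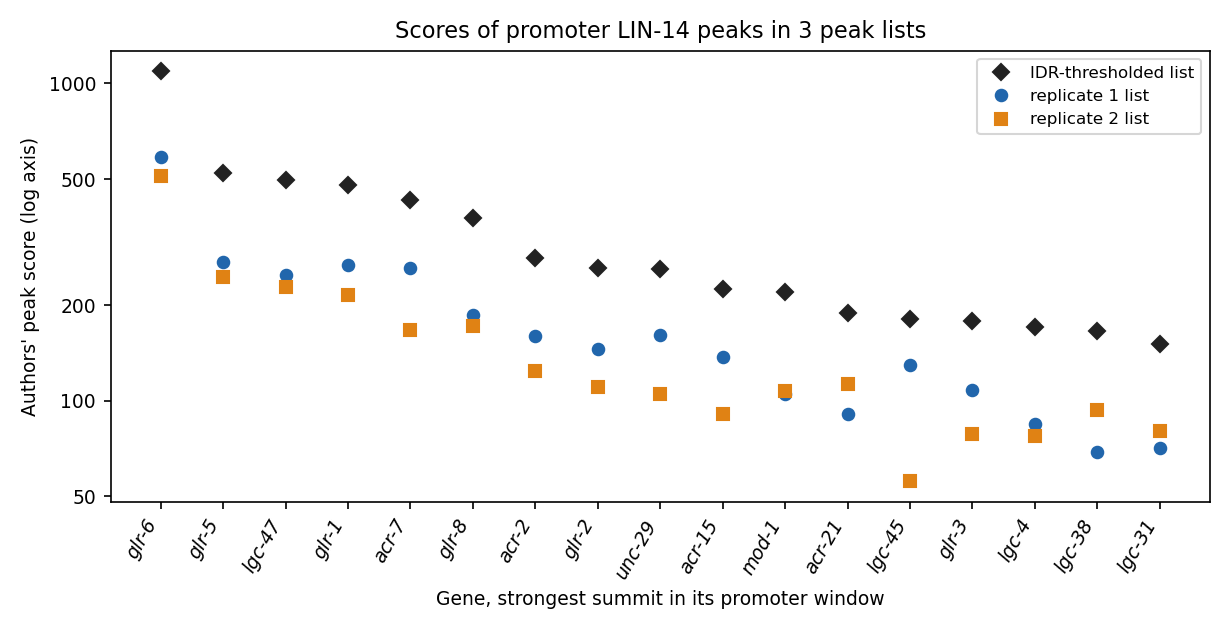
Score (y axis, log scale) of the strongest promoter peak of each of the 17 channel genes in the IDR-thresholded list and in both replicate lists, with genes ordered by the first. The glr-6 peak is highest in all 3 lists (1093, 586 and 509.9), and lgc-45 has the largest ratio between replicates (130.1 and 55.9).

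**Figure D5:**
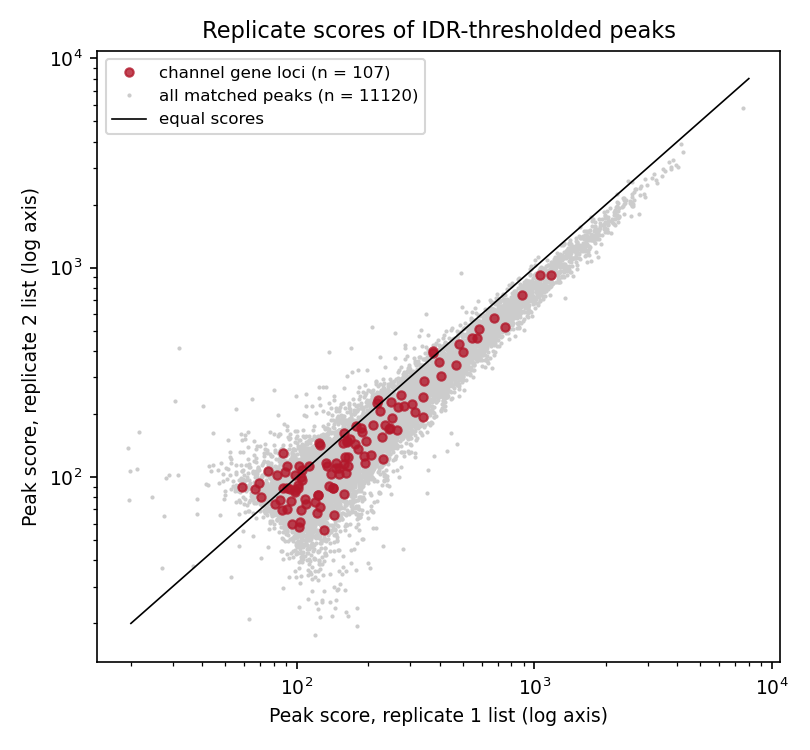
Replicate 2 score (y axis) against replicate 1 score (x axis), both log scales, for the 107 channel gene peaks matched in both lists and all 11120 matched peaks. Most points lie below the line of equal scores, and the median log2 ratio of replicate 1 to replicate 2 is 0.30 for channel genes.

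Most of the short sequences were found at a smaller share of channel gene summits than of other summits. At least 1 of the LIN-14 consensus spellings was present within 50 bp of 11 of 111 channel gene summits (9.91%) and of 12.6% of the other summits. GAGAGA was found at 16 (14.4%) against 26.5%, and TGATAA, the core of GATA factor sites, at 12 (10.8%) against 8.57%. None of the 9 was present at 67.6% of channel gene summits, against 52.1% of the others. Among the other summits in the lower 50% of scores, where most channel gene peaks fell, those shares were 11.4% for the consensus, 20.1% for GAGAGA, 10.9% for TGATAA and 57.9% for none. The share for TGATAA at channel gene summits was thus not above that of other low-scoring summits. Without the summits outside the gene that had another gene nearest, 77 channel gene summits were left. Their shares were 7.79% for the consensus, 14.3% for GAGAGA, 10.4% for TGATAA and 71.4% for none. No test was applied, and a missing match says only that the letters are not in the window.

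The channel subunits outside the naming rule, and the proteins that assemble and hold the receptors, are listed for comparison, with no test of their shares. Of 17 further subunit genes 8 had a promoter summit (47.1%), against 23% of all protein-coding genes, and their highest promoter scores had a median of 219.8. They were unc-49, the GABA receptor of body wall muscle (600, with 353 and 244 in replicates 1 and 2), the glutamate-gated chloride channel genes avr-14 (679, with 369 and 311), avr-15 (185), glc-3 (148.0) and glc-4 (164), the acetylcholine-gated chloride channel genes acc-1 (233) and acc-4 (289), and des-2 (207). At avr-15, acc-1 and des-2 the strongest of these summits lay at a transcript start inside the gene, 8959, 2096 and 526 bp past the outermost one.

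Of 25 genes for assembly, clustering and auxiliary proteins 17 had a promoter summit (68%, against the same 23%), with a median score of 577. The strongest was at nra-2, which encodes a nicalin-like protein that sets receptor composition (1914, with 1045 and 866 in replicates 1 and 2), a summit it shared with lin-53. It was followed by ric-3, the chaperone that receptors need to leave the endoplasmic reticulum (1751, with 962 and 797), at 229 bp upstream and in no other promoter window. Next came the scaffold gene lin-10 (970, with 540.4 and 435), rsu-1 (942, with 565 and 388) and the clustering gene frm-3 (752, with 425 and 330.1). The neuroligin gene nlg-1 had 626, sol-2 had 608, unc-50 had 580, emc-6 had 577 and the auxiliary subunit gene molo-1 had 493. The rest were cam-1 (444), lev-9 (325), lin-2 (303), eat-18 (273), stg-1 (199.8), madd-4 (192) and mpz-1 (191). At cam-1, lin-2, madd-4, mpz-1 and sol-2 the strongest promoter summit lay at an inner transcript start, 4551, 7759, 4496, 35443 and 539 bp past the outermost one. The peaks at unc-50, emc-6, lev-9 and sol-2 also lay in another gene's promoter window.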

How the data were processed

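LIN-14 ChIP-seq peaks of 2 biological replicates were analysed from 4 deposited lists on ce11. Per the deposited README texts, peaks of each replicate and of both together were called against a control file, and the IDR-thresholded list was derived from those 3. Aligner, caller and IDR threshold: not given in the sources used here. The peak score is the value that the authors deposited for each peak, on a scale that is not stated and differs between lists, and it was used only to describe and rank peaks. The other deposited column used is the summit offset, in bases, which the authors gave as the distance from the peak start. The files hold no read counts, so depth is unknown.

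Summits were assigned to Ensembl release 115 models of WBcel235, whose chromosome lengths hold all peaks. All 93 genes read ATG at the outermost coding start in the RefSeq sequence. The nearest gene was that with the closest transcript start. Positions count from 1, and distances are from the gene's outermost 5′ end unless another transcript is named. The genes, families, further gene lists and short sequences were chosen with earlier results of these data known. The rule names every gene with a promoter summit, the 12 others with the highest locus scores, and 15 named in any case. It allows sequences of up to 12 genes by score outside chromosome I. Outside promoter windows the sequences printed were a choice among these and did not follow score. Windows that overlap a UTR were left out. The remaining genes named were chosen after their values were seen. Counting was tested on planted summits. Python 3.11.15, pandas 2.3.3 and SciPy 1.17.1 were used. No test between groups was possible, since there is 1 group.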

Additional observations from a re-analysis of the deposited data

How the results depend on the processing

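The count of channel genes with a promoter summit was 17, and it depended on the window and on the score limit. It was 10 with a narrow window of 500 bp upstream and 100 bp inside (10.8%, against 17.7% of all genes) and 28 with a wide one of 2000 and 500 bp. It was 6 with the higher 50% of scores and 35 in the pooled list. From the highest scoring 11507 peaks of a single replicate it was 16 to 19. The locus count of 50 was 20 for the gene body alone and 29 with the higher 50% of scores (31.2%, against 34.2% of all genes), and 49 to 52 from a single replicate. The nearest-gene count of 34 was 13 with the higher 50% of scores (14%, against 19.6% of all genes), and 34 to 35 from a single replicate. The median promoter score of 261 over 17 genes was 312 over 28 genes with the wider window. In the pooled list it was 144 over 35 genes, on a scale that differs between lists, so it cannot be set against 261. The share of summits matched in both replicates was 82.9% within 50 bp. Counts in families are small. With the narrow window the ACR-16 group, the anion channels and the other lgc genes each had 1. With the wide window the levamisole group had 4, the DEG-3 group 1 and the anion channels 8. With only the outermost 5′ end the other lgc genes had 1. With the higher 50% of scores the levamisole group, the GABA group and the other lgc genes had 0, and the ACR-16 group and the anion channels 1 each, while glutamate receptors had 4. Without summits in another promoter window glutamate receptors had 3. In the pooled list the ACR-16 group had 5, the DEG-3 group 2, the GABA group 3, the anion channels 10 and the other lgc genes 5. From a single replicate glutamate receptors had 6 to 7, the levamisole group 2 to 3, the GABA group 0 to 1, the other lgc genes 1 to 3, and the ACR-16 group and anion channels 3. Merging overlapping peaks or requiring a match in both replicates left the promoter count at 17. The second is no independent check, since the list was already selected for agreement between replicates. The settings differ in the number of peaks and in the length of sequence covered, and the cause of these shifts was not tested. Read depth is unknown. No paired analysis was possible because the design holds 1 group.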

Other observations

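Of the 43 channel genes with no summit in the IDR-thresholded list from 5 kb upstream to 1 kb downstream, 9 had a peak there in the pooled list and 27 had none in any of the 4 lists. The locus of lgc-56 held 6 pooled peaks, 6 replicate 1 peaks and 3 replicate 2 peaks. The loci of lgc-49 (4, 5 and 5) and lgc-48 (3, 2 and 4) also held such peaks. The locus of unc-38, encoding a subunit of the levamisole-sensitive receptor, held 1 pooled peak, 3 replicate 1 peaks and 1 replicate 2 peak. These peaks were not assigned to genes.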
